A study of Mus musculus with 6 samples.

Results

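The genes described here are 9 mouse genes known from astrocytes: Sparcl1, Cpe, Apoe, Clu, Glul, Mt3, Ndrg2, Slc1a3 and Aldoc. They were followed through 1 list of AGO2 target peaks, in which 30 of the 2197 peaks had their midpoint in the span of 1 of these genes on mm10. The genes were chosen by the peaks they hold or lack in this same list, so those numbers are a description and were not tested.

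The peaks come from cortex of mice at postnatal day 14 that carried VGLUT2-Cre together with a conditional Spy3-AGO2 allele. Spy3-AGO2 is Argonaute 2 with a peptide tag, which was captured on a resin bearing SpyCatcher3. All 6 libraries are labelled as pyramidal neurons, the cortex's excitatory projection cells, and form 3 groups of 2: miRNAs bound to AGO2, target RNAs bound to AGO2, and input from whole lysate. All groups share the same alleles, tissue and age, and no group without the tag or without Cre was analysed here. The lysates were of whole cortex, so the restriction to a cell type rests on where Cre was active, that is, on cells with a history of expressing VGLUT2, the vesicular glutamate transporter encoded by Slc17a6. Values per library were not used for target or input, so no peak has a replicate check, an error or a depth. A peak count is therefore not scaled to the abundance of the transcript in the cortex, and a transcript present in few cells cannot be told apart from one present at low level in many.

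AGO2 carries a miRNA that pairs through its seed with a messenger RNA, most often in the 3′ untranslated region, and lowers its stability or translation. Astrocytes take up glutamate from the synapse, turn it into glutamine, secrete apolipoproteins and matrix proteins, and buffer metal ions. Several of the genes that mark them in the cortex are also transcribed by neurons. Among the 9 genes, general knowledge places Sparcl1, Cpe, Clu, Mt3 and Aldoc in neurons as well as astrocytes, though not always in neurons of the cortex. Apoe, Glul, Ndrg2 and Slc1a3 are mainly glial in healthy cortex. Expression in cortical neurons was not checked here, so the class of Aldoc in this tissue is uncertain.

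At least 1 peak lay in 7 of the 9 genes, where 4.3% of the 21887 protein-coding genes of the annotation held one. The peaks were very unevenly spread. Sparcl1 held 12 and Cpe held 11, together 23 of the 30. Apoe and Glul held 2 each, and Clu, Mt3 and Ndrg2 held 1 each. Slc1a3 and Aldoc held 0. Of all protein-coding genes, 1.36% held at least 2 peaks, as did 4 of the 9, and 0.0366%, or 8 genes, held at least 11. Sparcl1 and Cpe are among those 8, and 6 genes held more peaks than Sparcl1. No other protein-coding gene held exactly 12 peaks, so no gene matched Sparcl1 in this count. Its neighbours in the order were Atp1b1, a sodium pump subunit, with 13, and then Cpe with 11. Of the Atp1b1 peaks, only 11 lay in no other coding span, whereas all those of Sparcl1 and Cpe did. Counted that way, Atp1b1 stands below Sparcl1 and level with Cpe. Slc1a2, the main glutamate transporter of astrocytes, led the list with 45.

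**Figure D1:**
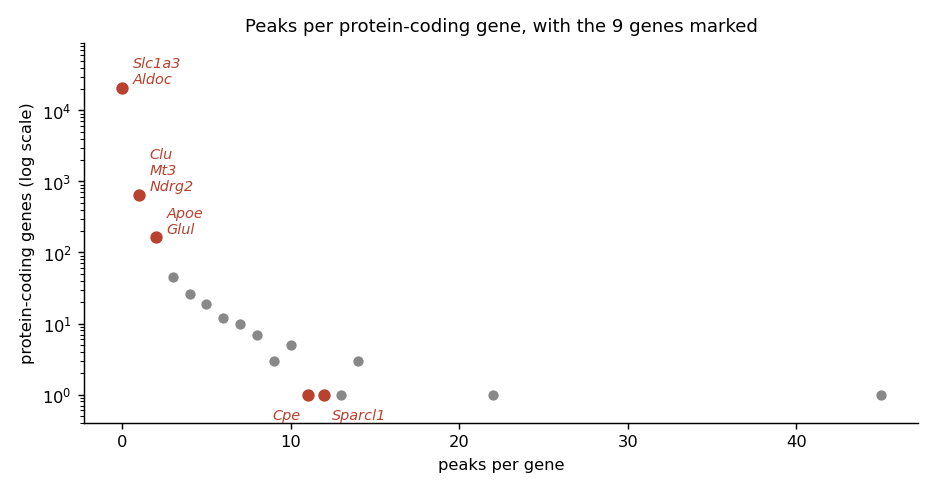
The horizontal axis gives the number of peaks per gene and the vertical axis, on a log scale, the number of protein-coding genes with that number; red points mark the values at which the 9 genes lie. Most protein-coding genes held 0 peaks, as did Slc1a3 and Aldoc, 644 held 1 and 163 held 2, while Cpe with 11 and Sparcl1 with 12 were the only genes at their values.

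Sparcl1 encodes hevin, a secreted matrix protein of the SPARC family that promotes the formation of excitatory synapses. Its span is 35.0 kb long (chromosome 5, 104079108 to 104114088). All 12 peaks lay on the minus strand, and they fell into 3 groups of 4. In the group nearest the 3′ end, read along the peaks' strand, the peaks ran from 104079179 to 104079235, 104079292 to 104079334, 104079361 to 104079400 and 104079426 to 104079548. They were separated by gaps of only 56, 26 and 25 nt, and 71.1% of the 370 nt that they spanned lay inside a peak. The second group stood 5464 nt further into the gene and was looser. Its peaks began at 104085013, 104085106, 104085774 and 104087023, and 11.1% of its 2053 nt lay in peaks. The group farthest from the end began another 5318 nt upstream. It held peaks of 101, 68, 72 and 53 nt between 104092384 and 104093305, which took up 31.9% of that stretch.

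The 8 peaks of the second and farthest groups lay 5.93 to 14.2 kb from the 3′ end of the span. Without transcript models it was not determined whether these stretches are exons, introns or untranslated region. No Sparcl1 peak lay in the 5′ part of the gene: the farthest was 40.5% of the span away from the 3′ end.

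Cpe encodes carboxypeptidase E, which trims peptide hormone precursors in secretory granules and is made by neurons and endocrine cells as well as astrocytes. Its span is 101 kb long (chromosome 8, 64592542 to 64693109). All 11 peaks lay on the minus strand. As in Sparcl1, a tight group of 4 lay at the 3′ end, at 64592570 to 64592634, 64592660 to 64592786, 64592809 to 64592846 and 64592961 to 64592995. The gaps were 25, 22 and 114 nt, and 62.2% of the 426 nt lay in peaks. The remaining 7 were scattered, with midpoints 2.43, 5.00, 16.6, 18.9, 18.9, 25.0 and 27.0 kb from the 3′ end. Of these, the pair near 18.9 kb (64611375 to 64611427 and 64611460 to 64611493) was 32 nt apart, and every other neighbouring pair was at least 1869 nt apart. The farthest Cpe peak was 26.8% of the span away from the 3′ end.

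**Figure D2:**
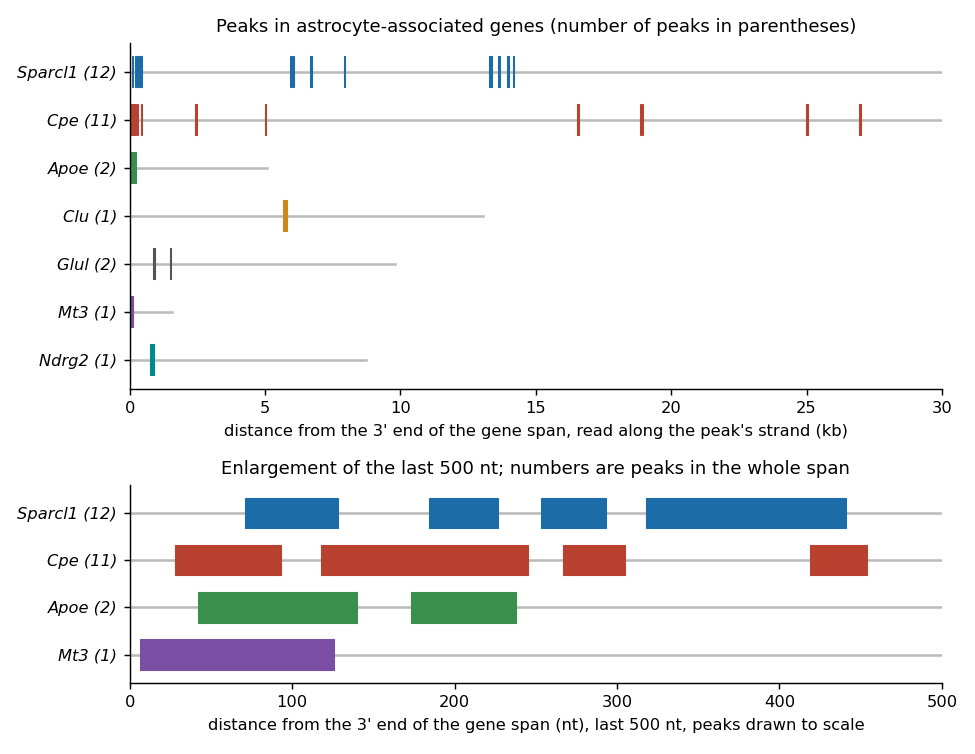
Each row is a gene, with peaks as coloured blocks along a grey line for the gene span, plotted against distance from the 3′ end in kb (upper panel, first 30 kb) and in nt (lower panel, last 500 nt, to scale). Sparcl1 shows 3 groups of 4 peaks, Cpe 4 peaks at the end and 7 scattered up to 27.0 kb, and the 2 Apoe peaks and the Mt3 peak lie in the last 500 nt.

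At least 4 peaks within 500 nt of the 3′ end, a measure chosen after the positions had been seen, occurred in 7 of the 850 protein-coding genes with a peak that lay in no other coding span. Sparcl1 and Cpe were 2 of the 7. Slc1a2 held 5 of its 45 peaks there, Ndrg4 5 of 7, Snap25, a synaptic SNARE gene, 4 of 8, and Atp2a2, which encodes the SERCA2 calcium pump, 4 of 14. Many of the peaks of Sparcl1 and Cpe lay far from the end. In Sparcl1 66.7% and in Cpe 54.5% of the peaks had their midpoint more than 5 kb from the 3′ end. In the 22 genes with at least 8 peaks, only Rtl1 had a larger share than Sparcl1, and Rtl1, Sparcl1 and Slc1a2 (55.6%) had larger shares than Cpe. Tspan7 and Rtn3 followed with 40.0% each, and Snap25, Camk2n1, Rab6b and Ywhaz were among those with 0 peaks that far out. These shares rest on 8 to 45 peaks per gene and depend on the length of the span, and their differences were not tested. Distances were read along the peaks' strand, and the Rtl1 peaks had a median distance of 38.1 kb in a span of 39.5 kb. Whether they lie on the strand of Rtl1 was not tested.

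Apoe and Clu encode the 2 major apolipoproteins that brain cells secrete. In Apoe (chromosome 7, 19696244 to 19701310), a short gene of 5.07 kb, both peaks lay at the 3′ end. They covered 19696286 to 19696383 (98 nt) and 19696417 to 19696481 (65 nt), with midpoints 90.5 and 205 nt from the end and a gap of 33 nt. Both were on the minus strand, the strand of Apoe. Clu (chromosome 14, 65968483 to 65981548) held a single plus-strand peak at 65975740 to 65975893. At 154 nt it was the widest peak in the 9 genes, as wide as or wider than 95.9% of all peaks in the list. It was also the only peak of Clu, Apoe, Glul, Mt3 and Ndrg2 with a midpoint more than 2 kb from the 3′ end: it stood 5.73 kb, or 43.9% of the span, from it.

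Glul encodes glutamine synthetase, the astrocytic enzyme that turns glutamate into glutamine. Its 2 peaks (chromosome 1, 153908191 to 153908250 and 153908776 to 153908870) were on the plus strand, that of the gene. They lay 1.50 and 0.900 kb from the end of a span of 9.79 kb (153899929 to 153909723), and none lay in the last 500 nt. Slc1a3 encodes GLAST, the glutamate transporter that works beside the product of Slc1a2. Its span of 76.7 kb (chromosome 15, 8634124 to 8710807) held 0 peaks, and the nearest peak on the chromosome was 2260.9 kb away.

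Mt3 encodes a brain metallothionein that binds zinc and copper. Its gene is only 1.54 kb long (chromosome 8, 94152607 to 94154148), and its single peak of 120 nt (94154023 to 94154142, plus strand) ended 6 nt before the end of the span. The metallothionein genes Mt1 and Mt2, also on chromosome 8, each held 1 peak close to the 3′ end. The Mt2 peak (94173451 to 94173504, 54 nt) had its midpoint 89.5 nt from the 3′ end, the Mt1 peak (94180209 to 94180256, 48 nt) 94.5 nt, and the Mt3 peak 65.5 nt. All 3 were on the plus strand, which is the strand of the 3 genes.

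Ndrg2, a gene of the NDRG family that is abundant in astrocytes, held 1 peak of 148 nt (chromosome 14, 51906021 to 51906168, minus strand, as the gene) at 0.824 kb from the end of its span (51905271 to 51914004). Its relatives held more: Ndrg4, known from neurons, held 7 peaks, all in the last 10% of its span, and Ndrg3 held 2. Ndrg1 held 0. Aldoc encodes the brain form of aldolase, a glycolytic enzyme (chromosome 11, 78323073 to 78327781). It held 0 peaks, and the nearest peak was 140 kb away, whereas its relative Aldoa, the form found in most tissues, held 2.

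Widths of the 30 peaks ran from 31 to 154 nt, and their median was 66 nt (quartiles 48.5 and 95 nt), against a median of 53 nt (33 and 80 nt) over the whole list. The medians were 55.5 nt in Sparcl1 and 65 nt in Cpe. The 7 peaks of Apoe, Clu, Glul, Mt3 and Ndrg2 had a higher median, 98 nt, and ran from 60 to 154 nt. The ranges overlapped, since the widest peak was 123 nt in Sparcl1 and 127 nt in Cpe. The genes with 1 or 2 peaks held none under 60 nt. In all, 22 of the 30 peaks were at least as wide as the median of the list. Peaks in the last 500 nt had a median of 65 nt (n = 11) and the others one of 68 nt (n = 19).

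**Figure D3:**
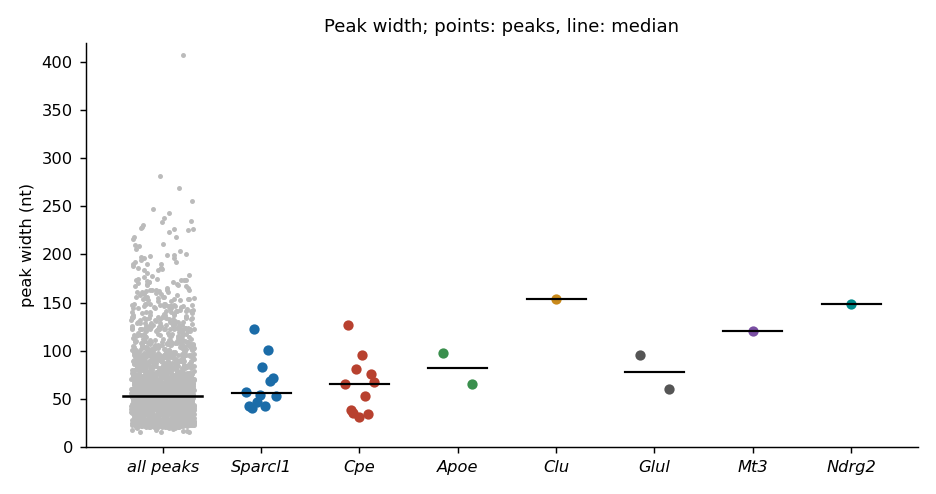
Peak width in nt for the 2197 peaks of the list (grey) and for each of the 7 genes with a peak; each point is a peak and each line a median. Sparcl1 (median 55.5 nt) and Cpe (65 nt) lie near the median of the list, 53 nt, while Clu, Mt3 and Ndrg2 each have 1 peak of 120 to 154 nt.

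No gene held peaks on both strands. For 6 of the 9 genes the RefSeq promoter table on GRCm38.p6 gave a strand, and the 6 peaks in Apoe, Glul, Mt3 and Ndrg2 were all on it. Over the other peaks that lay in exactly 1 protein-coding span and whose gene had a strand there, 89.2% of 1139 were on the strand of the gene. None of the 11 promoter windows of these genes, each 300 bases around a start site, overlapped a peak. None of the 30 midpoints lay in a second gene span.

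All 30 peaks lay in the 3′ part of their gene, and 0 had a midpoint in the first 50% of the span, which allows a share of up to 11.6% (exact 95% interval). Elsewhere 12.5% of 1540 peaks in exactly 1 protein-coding span lay there. Position was read along the peak's strand, so a peak opposite to its gene was placed from the wrong end. Of the 1540 peaks, 1139 had a gene with a known strand, and 89.2% of these were on it. How much of the 12.5% came from peaks opposite to their gene was not tested. The last 10% of the span held 15 of the 30 (50.0%, exact 95% interval 31.3 to 68.7), compared with 66.3% (63.9 to 68.7) of the 1540. The last 500 nt held 36.7% (19.9 to 56.1) against 28.1%, and 50.0% against 29.0% lay more than 5 kb from the end. These intervals treat peaks of 1 gene as independent, which they are not, and cover counting error only. The shares rest on Sparcl1 and Cpe: without them, 5 of 7 peaks (71.4%) lay in the last 10% and 1 of 7, that of Clu, lay beyond 5 kb. Counted by gene, 6 of the 7 genes with a peak had one in the last 10%, Clu being the exception.

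The genes also known from neurons and the mainly glial genes were then set side by side. Of the 5 genes also known from neurons, 4 held a peak, with 25 peaks in all, and of the 4 mainly glial genes 3 held a peak, with 5 in all. The excess of peaks in the first class lies entirely in Sparcl1 and Cpe. Clu and Mt3 held 1 each and Aldoc 0, while Apoe and Glul held 2 each, Ndrg2 held 1 and Slc1a3 held 0. All 5 peaks of the mainly glial genes lay within 2 kb of the 3′ end (exact 95% interval 47.8 to 100), as did 9 of the 25 (36.0%, 18.0 to 57.5) in the other class. This contrast depends on the length of the spans. Those of Apoe, Ndrg2 and Glul are 5.07, 8.73 and 9.79 kb long. In the other class, Sparcl1 spans 35.0 kb, Cpe 101 kb, Clu 13.1 kb and Mt3 1.54 kb. Median widths were 95 nt in the mainly glial genes and 65 nt in the other class. With 3 and 4 genes behind these values, the classes were not tested against each other.

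Wider lists of astrocyte genes differed more in the share of genes with a peak, though they too were drawn up with earlier results of these data known, and the difference was not tested. Of 30 other astrocyte genes with little expression in pyramidal neurons, 4 held a peak (13.3%, exact 95% interval 3.76 to 30.7), each just 1. Among them were Atp1b2, a subunit of the sodium pump, Slc6a11, the GABA transporter GAT3, and Fjx1. Of 20 other astrocyte genes that neurons also express, 13 held a peak (65.0%, 40.8 to 84.6), with 66 peaks between them. Gpm6a led with 14, followed by Tspan7 with 10, App with 9, Gpm6b with 8 and Scd2 with 6. Both lists stand above the 4.3% of all protein-coding genes, but only the first has an interval that reaches it. Expression was not measured here. Of the second list's peaks, 51 of 66 (77.3%) lay in the last 10% of the span.

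**Figure D4:**
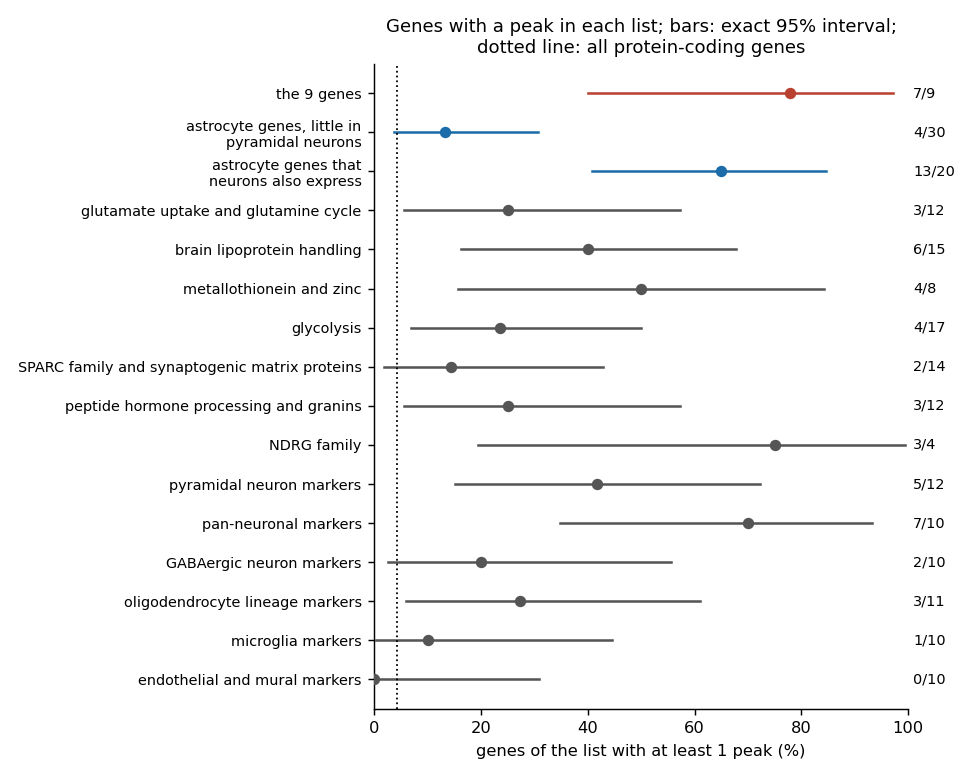
For each gene list the point gives the share of genes with at least 1 peak in percent, the bar its exact 95% interval and the label at the right the count; the dotted line is the share among all protein-coding genes, 4.3%. The 9 genes (7 of 9) and the astrocyte genes that neurons also express (13 of 20) lie far to the right of the astrocyte genes with little expression in pyramidal neurons (4 of 30). The 9 genes were chosen by their peaks, and each pathway list includes 1 or 2 of them. The list for glutamate uptake leaves out Slc1a2.

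The defining astrocyte markers fixed for this check were Gfap, Aqp4, S100b, Aldh1l1, Gja1, Gjb6, Fgfr3, Sox9, Slc7a10 and Acsbg1. They held 0 peaks in 10 genes, a count that does not stand apart from the 4.3% of all protein-coding genes with a peak. These markers are also part of the wider astrocyte lists above, so their count is not independent of those. Of the pyramidal neuron markers, 5 of 12 held one, among them Slc17a7 with 5, Camk2a with 4 and Nrgn and Tbr1 with 1 each, while Slc17a6, the gene of the Cre driver, held 0. Pan-neuronal markers held one in 7 of 10 genes, led by Syt1 with 14, Snap25 with 8, Stmn2 with 4 and Map2 with 3, and GABAergic markers in 2 of 10, among them Sst with 1. Among other glia, oligodendrocyte lineage markers held one in 3 of 11 genes, among them Mbp with 2 and Cnp with 1. Microglia markers held one in 1 of 10 genes, which was Siglech. Endothelial and mural markers held none in 10 genes. RNA of other cell types in the pull-down was not measured, and its part in the peaks of the 9 genes was not tested.

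The other genes of their pathways are given by count, to be read beside the 4.3% of all protein-coding genes that held a peak. Of the 10 other genes of glutamate uptake and the glutamine cycle, 2 held one, Slc17a7 with 5 and Slc38a2, a glutamine transporter, with 2. Slc1a2, with 45 peaks, was not part of this list. Of the 13 other genes of lipoprotein handling, 4 held one, among them the receptor genes Lrp1, Vldlr and Sorl1 with 1 each. The lipid exporter genes Abca1 and Abcg1 held 0. Of the 7 other metallothionein and zinc genes, Mt1, Mt2 and Slc39a10, a zinc importer, held 1 each.

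Of the 13 other SPARC family and synaptogenic matrix genes, only Spock2 held a peak, and Sparc, the closest relative of Sparcl1, held 0. Of the 11 other genes of peptide hormone processing, Pcsk2, the convertase that cuts the precursors before carboxypeptidase E trims them, held 5 and Pcsk1n, a convertase inhibitor, held 1. The granin genes Chga, Chgb and Scg2 held 0. Of the 16 other glycolytic genes, Aldoa held 2 and Eno2, Ldha and Pfkp held 1 each. The Eno2 peak, 23 nt wide, lay on the strand opposite to the gene.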

How the data were processed

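The submitters' processing notes name STAR 2.5.2a, cutadapt 2.10 and UMI-tools among the tools, and the mm10 build, without saying what each did. Not given in the sources used here were the peak caller, its threshold, any pooling of the target libraries and any use of the input. The score that the authors deposited is 0 for every peak, so it ranks nothing. The miRNA counts were not used, since without genome sequence the peaks could not be matched to miRNA seeds, and the planned seed share was not computed.

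A peak was credited to each gene whose RefSeq span (GRCm38.p6, the assembly of mm10) held its midpoint, and a peak inside a small RNA gene was not credited to the host. Strands came from RefSeq's promoter table. Positions are counted from 1, and distances run from a peak's midpoint to the end of the span along the peak's strand. Shares have exact (Clopper-Pearson) 95% intervals (scipy 1.17.1). No differences were tested. All 9 genes are named, and of each list every gene with a peak or the 5 with the most; other names were picked with their values known. The genes and lists were chosen with earlier results of these data known. Crediting was tested on simulated data: 200 of 200 peaks planted inside gene spans of the same annotation were recovered. Their strands were drawn without regard to the gene, and credit to further genes was not counted. The test therefore could not show a peak on the wrong strand or credited to an overlapping gene. Some genes of these lists are left out of the text.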

Additional observations from a re-analysis of the deposited data

How the results depend on the processing

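Of 38 values recomputed under other settings, 31 stayed within 1.5 times the count or inside the interval of the reported value. The 30 peaks and the 7 genes with a peak were the same in number with any overlap of 1 base, with whole peaks inside the span, with peaks in 1 span only, on the strand of the gene where known, and with spans extended by 1 or 5 kb. The strand setting could drop none of the 30 peaks. No strand was given for Sparcl1, Cpe and Clu, and the 6 peaks in genes with a strand were all on it. Requiring at least 2 peaks per gene left 4 of the 9 genes and 0 of the 30 astrocyte genes with little expression in pyramidal neurons. Of these 30, 1 held a peak when only peaks of at least the median width counted, and 8 did with spans extended by 5 kb. The share of peaks in the last 10% of the span rose from 50.0% to 73.3% with the last 20%, and was 71.4% without Sparcl1 and Cpe, which also raised the median width from 66 to 98 nt; leaving out both genes was chosen after seeing the data. The astrocyte genes that neurons also express with a peak numbered 11 to 13 under every setting run. No paired analysis was possible because the 1 peak list has no values per library, and for the same reason no replicate could be left out.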

Other observations

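The names of the peaks carry numbers that rise along the list up to 14469, while the list holds 2197 peaks, or 15.2% of that range. In Sparcl1 the numbers ran from 3981 to 4001, and 12 of these 21 numbers (57.1%) were in the list. In Cpe 11 of 18 (61.1%) were, in Glul 2 of 5 and in Apoe 2 of 2. What the other numbers stood for is not known here.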
